A study of Capsicum annuum with 4 samples.

Results

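Fruits soften as they ripen, and the 3 genes described here encode enzymes tied to that process in tomato. They are the pepper genes that the study's homology search paired with tomato PG2, alpha-mannosidase and beta-hexosaminidase, and they were taken by gene identifier from its list of 38 pepper genes, out of 35884 gene models in the count tables. PG2 is CA.PGAv.1.6.scaffold128.13, alpha-mannosidase is CA.PGAv.1.6.scaffold423.45 and beta-hexosaminidase is CA.PGAv.1.6.scaffold1361.13.

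The plants were Chiltepin (CH), the wild pepper Capsicum annuum var. glabriusculum, wild type and without any treatment, raised in a greenhouse from seeds of a wild population. Green fruits were taken at 20 days after anthesis (DAA) and red fruits at 68 DAA, with 2 RNA-Seq libraries at each stage. No stage in between was sampled, so a passing rise or fall between them would not be seen. Every library held pooled RNA of 6 whole fruits, with pericarp, placenta and seeds together, and the second library of a stage came from another collection of fruits. In such bulk samples, fewer cells of a type and less RNA per cell cannot be told apart.

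Pectin is the polysaccharide that glues neighbouring plant cells together in the middle lamella. Polygalacturonase cuts its galacturonan backbone, and PG2 is the isoform that accumulates in ripening tomato fruits. Alpha-mannosidase and beta-hexosaminidase act on other molecules, the N-glycans, which are the sugar chains attached to asparagines of proteins. Alpha-mannosidase removes terminal mannose and beta-hexosaminidase removes terminal N-acetylglucosamine. In tomato, lowering either of these N-glycan enzymes kept ripe fruits firmer for longer. The link of PG2 to softening given here is of another kind, its action on pectin and its accumulation in ripening fruits.

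Library totals on genes lay between 12139415 and 26130664 counts, the smallest being replicate 1 at 68 DAA. The stage labels were checked with 3 pigment genes. PSY1 of carotenoid synthesis and SGR1 of chlorophyll breakdown were higher in both red libraries, with mean levels going from 16.4 to 1265 CPM and from 17.6 to 4435 CPM. GLK2 of chloroplast development was lower in both, going from 137 to 0.282 CPM. Replicate libraries were not repeats of one another, since the chi-square of their counts per degree of freedom was 13.4 at 20 DAA and 26.9 at 68 DAA. Levels are given as CPM, which are counts relative to the library total scaled by TMM normalization, and as CPM per kb of coding length where different genes are set side by side.

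The 3 genes differ in structure. PG2 lies on chromosome 10 of the CM334 version 1.6 genome from 230112449 to 230118185 on the plus strand. Its model has 8 exons with 921 bp of coding sequence (307 codons), and introns take up 83.9% of its span of 5737 bp. Alpha-mannosidase lies on chromosome 6 from 220995441 to 221005983, also on the plus strand, and its model has 30 exons and 3105 bp of coding sequence (1035 codons). Beta-hexosaminidase lies on chromosome 1 from 244355392 to 244360701, again on the plus strand, with only 2 exons, of 775 and 950 bp, around a single intron of 3585 bp. The deposited models give every exon as coding, so UTRs are not annotated for any of them. RefSeq (assembly UCD10Xv1.1) lists the gene that the study's list pairs with each of the 3 as protein coding, with 3 transcripts for PG2, 2 for alpha-mannosidase and 1 for beta-hexosaminidase.

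**Figure D1:**
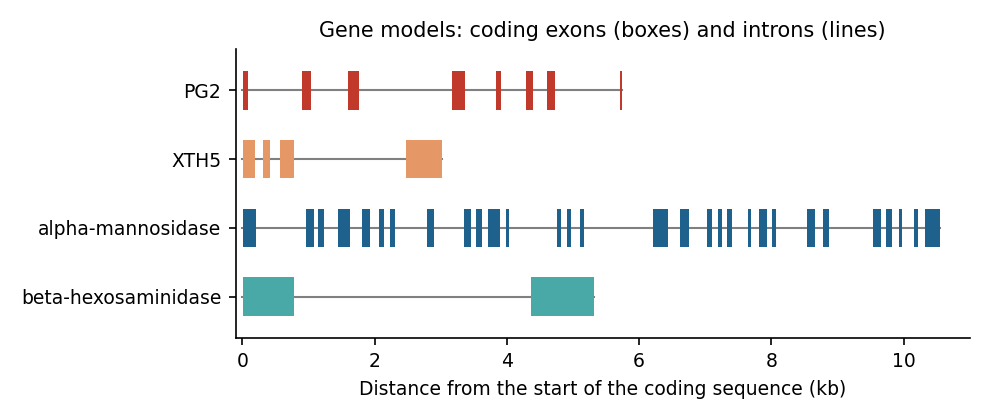
Coding exons (boxes) and introns (lines) of the 3 softening genes and of XTH5, drawn to scale from the start of the coding sequence in kb. PG2 has 8 short exons, alpha-mannosidase has 30 exons over 10543 bp, and beta-hexosaminidase has 2 long exons.

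PG2, the pectin enzyme, went from barely detected in green fruits to being among the most abundant transcripts of red fruits. It had 3 counts in replicate 1 and 0 in replicate 2 at 20 DAA. At 68 DAA it had 103119 counts in replicate 1 and 201559 in replicate 2. These made up 0.849% and 0.771% of all counts on genes, and only 4 genes had more counts in either library. After scaling to library size the replicates at 68 DAA were close, at 8859 and 8910 CPM, a ratio of 1.01. The stages did not overlap, and the red replicates differed by far less than the stages.

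A count of 3 has an exact Poisson 95% interval from 0.619 to 8.77 counts, and a count of 0 has an upper limit of 3.69 counts. These intervals cover counting error only. With the libraries of a stage summed, the level of PG2 in red fruits was 148853 times that in green fruits, with a counting interval from 50935 to 721801 times. The rise passed the quasi-likelihood test of edgeR over all 17160 tested genes (adjusted p = 1.14e-05). With both green libraries set to 3 counts, or 0.120 CPM on average, the ratio was 73996. PG2 passed the filter on low values through its level at 68 DAA alone. Its fitted log2 fold change, 17.05, depends on the prior count and is no bound, and 3 of the tested genes had a higher fitted value. It was 20.37 without replicate 1 at 20 DAA, which holds all of the green counts, and 16.18 without replicate 2.

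Alpha-mannosidase, which trims mannose from N-glycans, differed between the 2 stages in the other direction. Its counts were 6295 and 4242 in the libraries at 20 DAA and 298 and 614 at 68 DAA. On the scaled level this was 234 and 182 CPM in green fruits against 25.6 and 27.1 CPM in red fruits. The green replicates differed by 1.29-fold, more than counting error, and the red ones by 1.06-fold. Both red libraries lay far below both green ones.

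The stage means of alpha-mannosidase were 208 ± 37.3 CPM in green fruits and 26.4 ± 1.09 CPM in red fruits (SD, n = 2 each). The level thus fell to 12.7% of that in green fruits. The log2 fold change was -2.98, with a 95% interval from -3.39 to -2.57 (adjusted p = 3.89e-05, edgeR).

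Beta-hexosaminidase, which removes N-acetylglucosamine from N-glycans, also fell, but by less. It had 1192 and 984 counts at 20 DAA, and 232 and 385 at 68 DAA. In CPM the green libraries held 44.4 and 42.1, and the red libraries 19.9 and 17.0. The stages did not overlap, and the replicates differed by 1.05-fold at 20 DAA and by 1.17-fold at 68 DAA.

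Stage means of beta-hexosaminidase were 43.3 ± 1.59 CPM in green and 18.5 ± 2.06 CPM in red fruits (SD, n = 2 each), so that 42.7% of the green level was left. Its log2 fold change was -1.23, with a 95% interval from -1.55 to -0.91 (adjusted p = 0.000388, edgeR). The whole interval lies below a 4-fold change. By the edgeR test against a 4-fold change the gene was not called (adjusted p = 1), whereas alpha-mannosidase was (adjusted p = 0.000849).

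**Figure D2:**
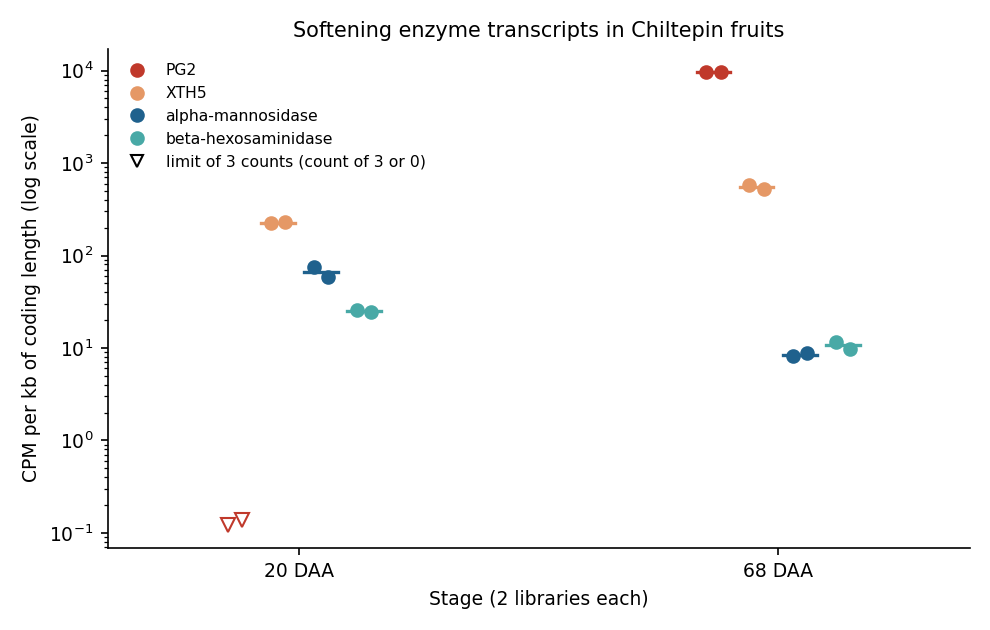
CPM per kb of coding length (log scale) of each gene in every library, with points for libraries and short lines for stage means. Open triangles are the limit of 3 counts for PG2 at 20 DAA, and the order of the genes at 20 DAA, with XTH5 highest and PG2 lowest, differs from that at 68 DAA, with PG2 highest and alpha-mannosidase lowest.

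When both a false discovery rate under 0.01 and a 4-fold change were required, PG2 was called higher and alpha-mannosidase lower at 68 DAA, and beta-hexosaminidase was called lower at the same rate without the fold limit. Across all tested genes, 8.22% were called higher and 18.7% lower with the fold limit, 26.9% in all. Without it 25.7% were called higher and 32.0% lower, 57.7% in all. The libraries of the stages did not overlap for any of the 3 genes, which was so for 87.1% of all tested genes. A lower level in red fruits was thus common among the genes of these libraries. The fall of alpha-mannosidase was nevertheless deeper than that of most genes, since 13.8% of tested genes had a lower log2 fold change. For beta-hexosaminidase 25.2% of tested genes had a lower one.

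**Figure D3:**
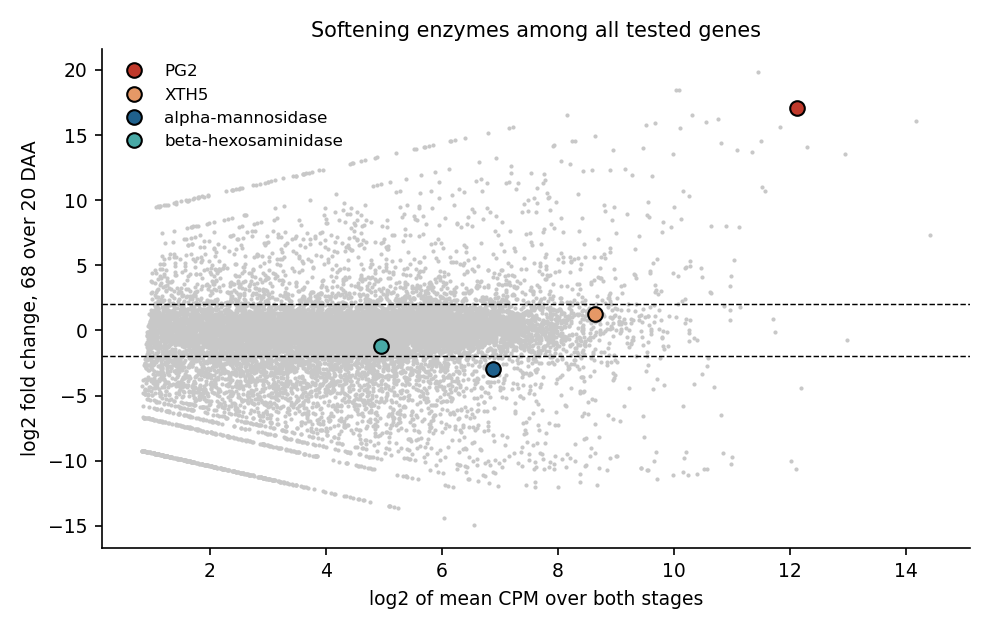
Log2 fold change of 68 over 20 DAA against log2 of the mean CPM for all 17160 tested genes (grey), with the softening genes in colour and dashed lines at a 4-fold change. PG2 sits at the upper right with a fitted value of 17.05 that depends on the prior count, alpha-mannosidase at -2.98 lies below the lower line, and beta-hexosaminidase at -1.23 lies between the lines.

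Per kb of coding length, the order of the transcripts turned over between the stages. At 20 DAA, alpha-mannosidase stood at 75.5 and 58.5 CPM per kb and beta-hexosaminidase at 25.7 and 24.4, while PG2 was at or under its limit of 0.121 and 0.139. In these green fruits the alpha-mannosidase transcript was thus the most abundant of the 3, at 2.93 and 2.39 times the level of beta-hexosaminidase. With PG2 set to 3 counts, alpha-mannosidase was 622 and 419 times as abundant in the same libraries.

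At 68 DAA, PG2 stood at 9619 and 9674 CPM per kb, against 11.6 and 9.87 for beta-hexosaminidase and 8.25 and 8.74 for alpha-mannosidase. PG2 was then 1167 and 1107 times as abundant per kb as alpha-mannosidase, and 832 and 981 times as abundant as beta-hexosaminidase. The N-glycan genes were now close to each other. Alpha-mannosidase was at 0.714 and 0.886 times the level of beta-hexosaminidase, the reverse of their order in green fruits. In replicate 2 their counting intervals overlapped, from 8.06 to 9.46 CPM per kb for alpha-mannosidase and from 8.91 to 10.9 for beta-hexosaminidase. Their order at 68 DAA is therefore less firm than at 20 DAA. All of these levels rest on coding lengths without UTRs, and whether the PG2 model holds the full coding sequence was not tested.

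The contrast between pectin breakdown and N-glycan processing was tested within libraries, by the log2 ratio of the CPM of 2 genes, which the scaling of the libraries touches only through the prior count. Between PG2 and alpha-mannosidase this ratio was -10.15 and -10.91 at 20 DAA and 8.43 and 8.35 at 68 DAA. Between PG2 and beta-hexosaminidase it was -7.75 and -8.80 in green and 8.79 and 9.02 in red fruits. The green values are set by the prior count of 2. PG2 lay far below both N-glycan genes in each green library and far above both in each red library.

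Between alpha-mannosidase and beta-hexosaminidase the log2 ratio was 2.40 and 2.11 at 20 DAA and 0.36 and 0.67 at 68 DAA. It fell by 1.74 (standard error 0.21), so alpha-mannosidase lost more of its green level than beta-hexosaminidase did. The libraries of the stages did not overlap in any of the 3 ratios, and for the levels of single genes this was so for 87.1% of all tested genes. For each of them the exact permutation test over the 4 libraries (two-sided) gave p = 0.333, also 0.333 after adjustment over the 3 pairs, and this is the smallest p that 2 libraries against 2 allow. The 95% intervals of the log2 fold changes of the N-glycan genes, given above from the fit across all genes, did not overlap either.

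XTH5 (CA.PGAv.1.6.scaffold700.22) is the other cell wall gene of the study's list. It encodes a xyloglucan endotransglucosylase/hydrolase, an enzyme that cuts and rejoins the xyloglucan chains between cellulose fibres. It had 6160 and 5497 counts at 20 DAA and 6973 and 12098 at 68 DAA, which is 229 and 235 CPM against 599 and 535 CPM. The red libraries were both higher, by a log2 fold change of 1.29 with a 95% interval from 0.94 to 1.63 (adjusted p = 0.000441, edgeR). The call at a false discovery rate under 0.01 was lost without replicate 1 at 20 DAA (adjusted p = 0.0115) and without replicate 2 at 20 DAA (adjusted p = 0.0107), where the remaining green library is assumed to vary like the red ones.

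Of the 4 softening genes, both enzymes of cell wall polysaccharides were higher in red fruits and both enzymes of N-glycans were lower. With the fold limit the calls were 1 higher and 1 lower, where 26.9% of all tested genes were called, and without it all 4 were called, against 57.7% of all tested genes. With 4 genes, these counts are a description. XTH5 was already well expressed in green fruits, with more transcript per kb than 95.8% and 96.0% of tested genes in the green libraries, whereas PG2 was near the bottom of the tested genes there. At 68 DAA PG2 was 16.6 and 18.7 times as abundant per kb as XTH5.

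In tomato, ripening and with it softening is controlled by transcription factors and by DNA demethylation. The regulator list used here holds 9 pepper genes of the study's list with names of such regulators, and it is not complete. The transcription factors ARF4, ERF6 and AP2 of the study's list were left out of it. ARF4 fell by 4.37 on the log2 scale and was called with the fold limit. ERF6 was not called (log2 fold change 0.38), and AP2 was too low to be tested. With the fold limit, 3 of the 9 were called higher and 3 lower at 68 DAA, and without it 5 were higher and 3 lower. Over all tested genes the shares were 8.22% higher and 18.7% lower with the limit, and 25.7% and 32.0% without it. The regulators' median log2 fold change was 1.21, against -0.04 over all tested genes.

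Of the regulators on the list, both MADS-RIN genes were higher in red fruits. RIN is a MADS-box factor that binds the PG2 promoter in tomato. CA.PGAv.1.6.scaffold1021.30 had 68 and 75 counts at 20 DAA and 24449 and 44509 at 68 DAA, and it rose by 9.47 on the log2 scale (adjusted p = 7.43e-06, edgeR). The other, CA.PGAv.1.6.scaffold1091.1, was at 2.94 and 3.81 CPM in green and 90.7 and 44.9 CPM in red libraries. FUL1, a MADS-box partner of RIN, rose by 4.68 on the log2 scale (adjusted p = 2.44e-05). TAGL1, another MADS-box activator, rose by 1.30 (adjusted p = 0.000272), and SlDML2, a DNA demethylase that acts at ripening genes, by 0.84 (adjusted p = 0.0016). The call of SlDML2 was lost without replicate 1 at 20 DAA (adjusted p = 0.0241) or replicate 2 (adjusted p = 0.0366).

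NAC1, a factor of the NAC family, had a log2 fold change of 1.21 and was not called (adjusted p = 0.0114, edgeR). It rests on 50 to 112 counts per library. Of 17 alternatives, 5 called it, among them limma-voom (adjusted p = 0.00853) and DESeq2 (adjusted p = 0.0054), and 12 did not. With scaling by library totals only it was not called (adjusted p = 0.0354, edgeR). Its log2 fold change was 0.93 without replicate 1 at 20 DAA and 1.47 without replicate 2 at 20 DAA.

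The other regulators of the list were lower in red fruits, as were the N-glycan genes. FUL2, a close relative of FUL1, fell by 4.69 on the log2 scale. The study describes FUL2 as a positive regulator of fruit softening, so not every activator on the list was higher in red fruits. MADS-box protein 1, a repressor of ripening in tomato, had a log2 fold change of -3.09, close to that of alpha-mannosidase. LeSPL-CNR, the SBP-box gene of the tomato mutant Colorless non-ripening, fell by 7.27, with 9 and 6 counts left at 68 DAA. Named for a mutant that fails to ripen, LeSPL-CNR was thus, with FUL2, an exception to the rise of MADS-RIN and FUL1. Leaving out one red library moved its log2 fold change to -7.95 (replicate 1 left out) or to -6.46 (replicate 2 left out). The direction of PG2 was thus shared by some of these regulators and not by others.

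**Figure D4:**
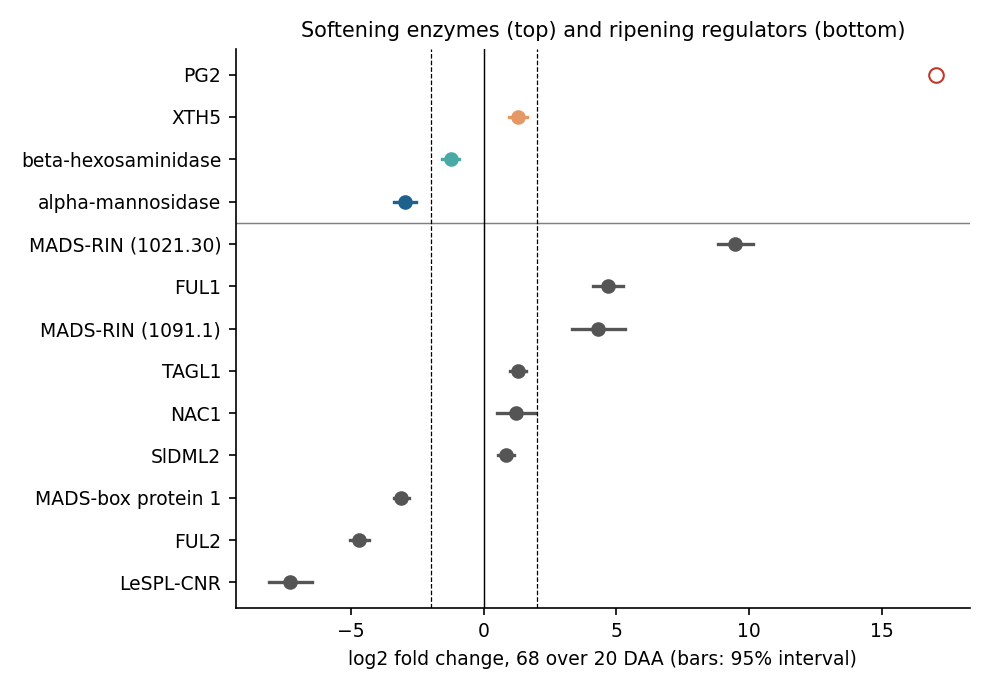
Log2 fold change of 68 over 20 DAA with 95% intervals for the 4 softening genes (top) and the 9 regulator genes (bottom), with dashed lines at a 4-fold change. PG2 is an open circle with no interval because its size depends on the prior count, and the regulators run from 9.47 for a MADS-RIN gene to -7.27 for LeSPL-CNR.

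The pattern of each gene over the 4 libraries was compared with that of 17157 other tested genes, by the largest difference in log2 CPM in any library. For PG2 no gene lay within 0.5. The nearest was CA.PGAv.1.6.scaffold1473.25, 1.12 away, with no count at 20 DAA and 53443 and 149573 counts at 68 DAA. Next came CA.PGAv.1.6.scaffold1476.2, 1.18 away, with 10 and 2 counts in green and 56757 and 149762 in red libraries. PG2 therefore had no close match in level, and both nearest genes were lower than it at 68 DAA.

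For alpha-mannosidase, 11 genes lay within 0.5. The nearest were CA.PGAv.1.6.scaffold911.8, at a distance of 0.22, and CA.PGAv.1.6.scaffold523.95, at 0.26. Their log2 fold changes were -2.96 and -2.77. Beta-hexosaminidase had 265 genes within 0.5, and of the study's list only the ethylene receptor gene ETR4 was one of them. Its moderate level and moderate fall were thus the most widely shared of the 3 patterns. None of the genes given by identifier here has a name in the deposited files.

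The gene models on either side were examined to see whether the changes reached beyond the genes themselves, 5 on each side, a number chosen after the values were known. Of the 10 neighbours of PG2 within 55.2 kb, 8 were tested and none was called with the fold limit, against 26.9% of all tested genes. Without the limit 4 were called higher and 1 lower, against 57.7% called over all tested genes, and the log2 fold changes of the 8 ran from -0.56 to 1.5. The gene 4947 bp downstream on the same strand had 106 and 141 counts at 68 DAA, or 0.103% and 0.0700% of those of PG2, and was not called (log2 fold change -0.55, adjusted p = 0.0738, edgeR).

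Alpha-mannosidase faces its nearest neighbour, CA.PGAv.1.6.scaffold423.44, which lies 1551 bp downstream on the opposite strand. This neighbour had 468 and 398 counts in green and 18 and 31 in red libraries, and its log2 fold change was -3.57 (adjusted p = 3.72e-05, edgeR). Its counts were 7.43% and 9.38% of those of alpha-mannosidase in the green libraries and 6.04% and 5.05% in the red ones. Both genes thus fell, and the fitted log2 fold change was larger in size for the neighbour than for alpha-mannosidase (-2.98). Whether reads were counted by strand is not given in the sources used here, and the models hold no UTRs, so whether the neighbour's counts include reads of alpha-mannosidase was not tested. Of the 10 neighbours of alpha-mannosidase 4 were tested, and all 4 were called without the fold limit, against 57.7% of all tested genes. Of these 4, 2 were higher and 2 lower. With the fold limit 1 was called higher and 2 lower, against 26.9% of all tested genes called. Apart from CA.PGAv.1.6.scaffold423.44, the tested neighbours had log2 fold changes of 1.56 at 14177 bp upstream, -8.04 at 63.2 kb downstream and 3.64 at 107.9 kb upstream.

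Around beta-hexosaminidase, 4 of 10 neighbours were tested, of which 1 was called higher and 2 lower, both with and without the fold limit. Over all tested genes, 26.9% were called with the limit and 57.7% without it. The log2 fold changes of the 4 neighbours ran from -6.43 to a fitted value of 11.88. The nearest tested gene lay 33383 bp downstream, with 62 and 62 counts in green and 37 and 90 in red libraries, and was not called (log2 fold change 0.54, adjusted p = 0.122, edgeR).

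**Figure D5:**
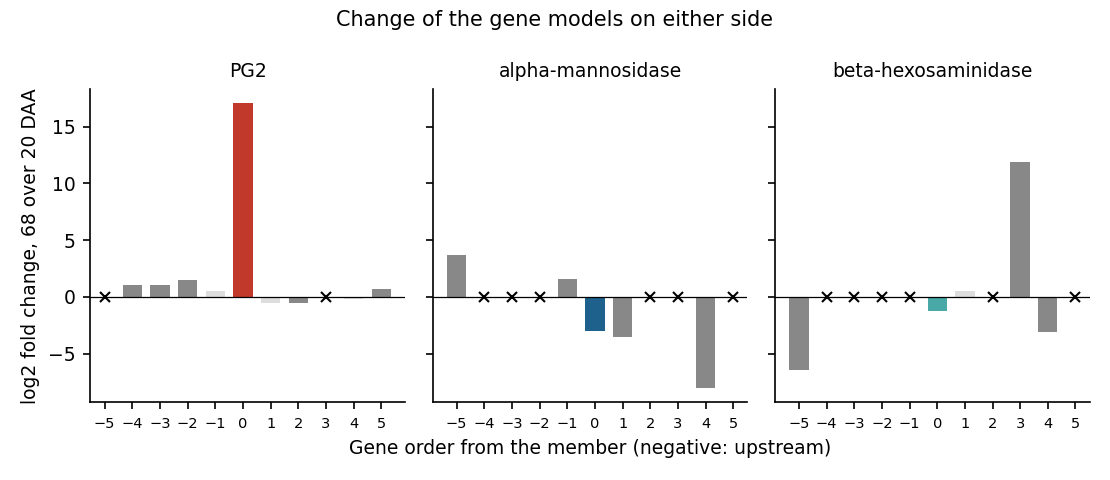
Log2 fold change of 68 over 20 DAA of the 5 gene models before and after each softening gene, in gene order along its strand. Coloured bars are the softening genes, dark grey bars are neighbours called at a false discovery rate under 0.01, light grey bars are neighbours not called and crosses are neighbours that were not tested, and no neighbour of PG2 exceeds 1.5.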

How the data were processed

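Per the submitters' processing notes and the study's methods, Trimmomatic 0.36 served for trimming, HISAT2 2.1.0 for alignment to the CM334 genome (version 1.6) and HTSeq 0.11.0, in union mode, for counting. The authors deposited raw counts per gene, without normalization, and the gene models used (start and end positions only). Entries that name no gene, from 31.7% to 38.2% of a library, were left out.

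Counts were analysed with edgeR 4.0.16 in R 4.3.3. The filter kept 17160 genes whose average log2 CPM reached 1. They were scaled by TMM and tested between the stages with the quasi-likelihood test (prior count 0.125), with Benjamini-Hochberg adjustment over all of them. Log2 CPM used a prior count of 2. Standard errors and 95% intervals of log2 fold changes come from the F statistic and its degrees of freedom. The spread of 2 libraries per stage was moderated across genes, and the depths, given with the results, limit precision mainly for PG2 at 20 DAA. The procedure was also run on simulated counts in which a small share of genes changed, up or down at random. That run does not test the wide and mostly downward change between these stages. Ratios, neighbours and figures used Python 3.11.15, scipy 1.17.1 and matplotlib 3.10.9.

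The members, the lists and the tests were chosen with earlier results of these data known. Genes named in the text are the 3 members, XTH5, the regulator list, 3 pigment genes for the stage labels, and the 2 genes nearest in pattern to PG2 and to alpha-mannosidase. ETR4, ARF4, ERF6, AP2 and the neighbour of alpha-mannosidase given by identifier were named after their values were seen. Names come from the study's homolog list, 36 of whose 38 entries matched the RefSeq gene table of UCD10Xv1.1. Protein and promoter sequences were not analysed here. Alternatives were other scalings, filters and tests (DESeq2 1.42.0, limma-voom from limma 3.58.1), thinned libraries, a replicate block and each library left out.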

Additional observations from a re-analysis of the deposited data

How the results depend on the processing

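Under 17 alternatives each, which reuse the same 4 libraries, PG2 stayed higher and alpha-mannosidase stayed lower at 68 DAA. Both had an adjusted p under the limit in every fit with 2 libraries per stage. PG2 passed the main filter on low values through its red libraries alone, so its calls in these fits are no separate support. The fitted log2 fold change ranged from 15.82 (prior count 2) to 20.37 (without replicate 1 at 20 DAA) for PG2 and from -3.24 to -2.81 for alpha-mannosidase. Beta-hexosaminidase stayed lower in all 17, from -1.49 to -1.09, and was not called only by the edgeR test against a 4-fold change, with the same value of -1.23. With 1 library left out in turn it ranged from -1.29 to -1.09, alpha-mannosidase from -3.18 to -2.81 and PG2 from 16.18 to 20.37. Scaling by library totals alone moved the median of all genes to -0.30, alpha-mannosidase to -3.24 and beta-hexosaminidase to -1.49. The count of genes called with the fold limit was 4615, and it was 9904 with no fold limit and 7629 with at least 2-fold. With 1 library left out it ranged from 4151 to 4806. Deviations of same-numbered replicates from their stage means were nearly uncorrelated (correlation 0.025), which cannot exclude a shared round of processing. The replicate block gave 4665 calls and -2.96, -1.23 and 17.05 for alpha-mannosidase, beta-hexosaminidase and PG2. With a prior count of 0.5 the changes in log2 ratio of PG2 to alpha-mannosidase and to beta-hexosaminidase were 20.23 and 18.49, against 18.92 and 17.18. Coding and exon lengths were identical in all models, so that alternative left the levels per kb as they were. The green level of PG2 is limited by depth, at 3 counts per library.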

Other observations

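Of the 17160 tested genes, 197 (1.15%) had at most 3 counts in both libraries at 20 DAA, and 186 of these were called at least 4-fold higher at 68 DAA by the quasi-likelihood test of edgeR. They passed the filter on low values through the red libraries, so both the small share and the high count of calls follow in part from the filter. At 68 DAA, 47 of the 197 had a mean above 100 CPM and 11 a mean above 1000 CPM, and none was above PG2. Over all tested genes, 4 had a higher mean than PG2 at 68 DAA. Near beta-hexosaminidase, a gene model 49392 bp downstream on the same strand belongs to this group, with no count in either green library and 272 and 481 counts in the red ones, while beta-hexosaminidase itself was lower in the red libraries.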
